A study of Homo sapiens with 6 samples.

Results

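The acid-sensing ion channels (ASICs) are sodium channels of the plasma membrane that open when the fluid outside the cell becomes acidic. The family was described here through the genes ASIC1, ASIC2, ASIC3 and ASIC4, which are 4 of the 61806 genes in the count table. They were found by gene symbol, and the family was chosen by the fold change of ASIC4 between the groups, one of the largest rises in the table. The values of that contrast are therefore given for the members as a description, with no p-value. Where the text says that a member was called, this places it in the fit over all genes and is no test of it. U87-MG is an established human glioblastoma cell line. Total RNA was sequenced from 3 libraries of a negative control (NC, genotype label wildtype) and from 3 libraries labelled GRIK1 siRNA (genotype label GRIK1 knockdown), with no further treatment or time in the labels. The methods of the study describe transfection of 3 siRNA sequences, whereas the deposited design text names an shRNA, and the labels do not state whether libraries 1, 2 and 3 are replicates of the same siRNA. The text of the study says that the sequence named siRNA1 was carried into its later experiments, while the titles number the libraries siRNA1, siRNA2 and siRNA3. They also do not state separate cultures, so p-values measure only the spread between these libraries.

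ASIC subunits belong to the degenerin and epithelial sodium channel (DEG/ENaC) superfamily and assemble in groups, either of the same subunit or of different ones. ASIC1 is the main acid sensor of central neurons and, in its ASIC1a form, also passes some calcium. ASIC2 changes the properties and placement of channels that it forms with other subunits. ASIC3 is best known from sensory neurons, where it takes part in acid-evoked pain. ASIC4 does not make an acid-gated current on its own and is known for lowering the surface level of ASIC1a. Tumors such as glioblastoma often have an acidic surrounding, which is why acid sensing has been studied in glioma cells.

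The libraries held between 11099909 and 14006968 counted reads. The targeted gene, GRIK1, had 18, 9 and 8 counts in NC libraries 1, 2 and 3, against 15, 20 and 20 counts in the libraries labelled with its siRNA, so the group that carries the name of its knockdown did not have less of it, and those libraries are called siRNA-labelled throughout. NC library 3 stood apart from the other libraries, with a TMM scaling factor of 0.892 against 1.01 to 1.03 in the others, and values that move markedly without it are also given without it. The summed level of 6 glioma markers (VIM, CD44, NES, FN1, SOX2 and GFAP) lay between 5578 and 7325 normalized CPM (counts scaled to the TMM library size) in NC and spanned 7159 to 7308 in the siRNA-labelled libraries, nearly all of it VIM, CD44 and FN1. SOX2 had at most 4 counts in any library, and GFAP had 8 to 13 counts in NC against 36 to 39 counts in the siRNA-labelled libraries. Of the markers of other brain cells, AIF1 and CX3CR1 of microglia and MOG of oligodendrocytes had 0 counts in each library, while the 4 neuron markers summed to 38.5 to 46.4 normalized CPM in NC against 36.4 to 37.3 in the siRNA-labelled libraries, mostly SNAP25. The markers of oligodendrocytes, microglia and endothelium each summed to at most 1.6 normalized CPM in any library. In bulk RNA, fewer cells that express a gene and less RNA per cell cannot be told apart.

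The U87-MG cells held RNA of ASIC1, ASIC3 and, in the siRNA-labelled libraries, ASIC4. ASIC2 was at the limit of detection in both groups. ASIC4 went from a nearly silent gene to the member with the second highest level, ASIC3 was also higher, and the ASIC1 groups overlapped. Levels are compared between genes in FPKM (counts scaled to exonic gene length and to the reads counted in the library), whereas fold changes come from the counts.

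**Figure D1:**
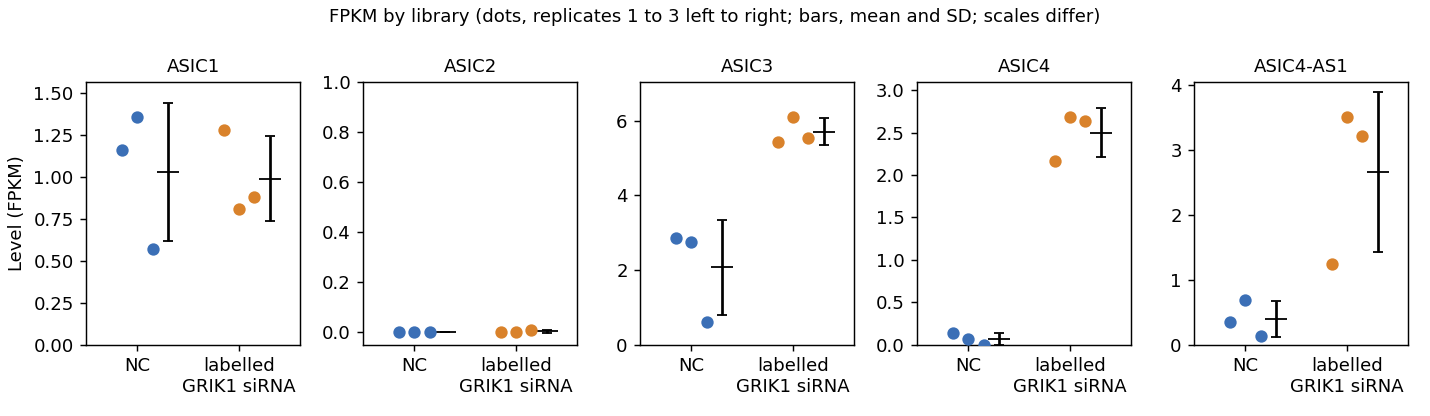
The plot of member levels shows FPKM in each library for ASIC1, ASIC2, ASIC3, ASIC4 and ASIC4-AS1, with NC in blue, the siRNA-labelled libraries in orange, and bars for the mean and SD of 3 libraries. The groups are separate for ASIC3, ASIC4 and ASIC4-AS1, overlap for ASIC1 and lie at or near 0 for ASIC2.

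ASIC4 (ENSG00000072182) lies on the plus strand of chromosome 2 from 219514170 to 219538772 (GRCh38), and GENCODE 29 gives it 5 transcripts, 2 of them protein coding. The reads counted on it were 8, 4 and 0 in NC libraries 1, 2 and 3, against 141, 178 and 183 in siRNA-labelled libraries 1, 2 and 3. In FPKM these levels were 0.14, 0.07 and 0 against 2.17, 2.69 and 2.64. The groups were far apart, and each of the 3 siRNA-labelled libraries was at least an order of magnitude above the highest NC library. The mean level was 0.355 ± 0.354 normalized CPM in NC and 12.7 ± 1.48 normalized CPM in the siRNA-labelled libraries (SD, n = 3 each). Scaled to library size, the siRNA-labelled sum of 502 counts was 37.1 times the NC sum of 12, and its exact 95% confidence limits, for counting error alone, were 21.1 and 72.4. The fitted log2 fold change was 5.16 (standard error, SE, 0.53), the highest but 5 of the 15870 genes tested. The count of 0 in NC library 3 allows up to 3 counts, or 0.24 normalized CPM. Without NC library 3 the log2 fold change was 4.55 (SE 0.28), and without NC library 1 it was 6.15. ASIC4 passed the expression filter (an average FPKM of 0.5 or more across the 6 libraries) only through the siRNA-labelled libraries.

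ASIC3 (ENSG00000213199), on the plus strand of chromosome 7 from 151048292 to 151052756, had the highest level of the family in each library. It had 87, 84 and 23 counts in NC against 185, 212 and 201 counts in the siRNA-labelled libraries, in the order of their numbers. In FPKM these were 2.85, 2.75 and 0.6 against 5.44, 6.11 and 5.54. The lowest siRNA-labelled library was above the highest NC library, and the NC libraries themselves were split, with number 3 well below the other two. The log2 fold change was 1.43 (SE 0.44), and it was 1.00 (SE 0.13) without NC library 3.

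ASIC1 (ENSG00000110881), on the plus strand of chromosome 12 from 50057548 to 50083611, had 74, 87 and 46 counts in NC against 91, 59 and 67 counts in the siRNA-labelled libraries. Its levels were 1.16, 1.36 and 0.57 FPKM against 1.28, 0.81 and 0.88 FPKM. The groups overlapped, and the lowest value was again that of NC library 3. The log2 fold change was -0.12 (SE 0.31), or -0.37 (SE 0.20) without NC library 3. By summed counts, 217 against 207, the ratio was 0.931 (exact 95% confidence interval from 0.766 to 1.13, counting error only).

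ASIC2 (ENSG00000108684), a gene of chromosome 17 (33013087 to 34174964, minus strand), had 0 counts in 5 libraries and 1 count in siRNA-labelled library 3. A count of 0 allows a level of up to 0.0363 to 0.0458 FPKM in these libraries, so no difference was detectable at this depth. The span of ASIC2 holds 22 other genes of the table, and TLK2P1, a pseudogene, was the only one of them with more than 1 count in any library, at 4, 4 and 7 counts in NC and 5, 5 and 7 in the others.

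Of the 3 members tested, 1 was called, ASIC4, where a call in edgeR means that the adjusted p is below 0.05 and that the log2 fold change exceeds 1 in either direction. Over all genes tested the share called was 1.41%, with 0.87% called higher and 0.542% called lower. An adjusted p below 0.05 at any fold was reached by 3.08%. Since ASIC4 was the reason for choosing the family, nothing is read from this count. For 2 of the 3 members, ASIC3 and ASIC4, each siRNA-labelled library lay above each NC library, which also held for 19.4% of all genes tested. ASIC3 was called without the expression filter and with DESeq2, where the shares called over all genes were 1.95% and 3.14%, and it was not called in any other fit. Without NC library 3 its log2 fold change of 0.998 missed a call by the fold threshold alone. The call of ASIC4 was lost when NC library 1, NC library 2 or any of the siRNA-labelled libraries was left out. Its log2 fold change lay between 5.11 and 6.15 in these fits, in which 0 of 15870 genes were called.

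Summed over the 4 members, the level was 4.15, 4.18 and 1.17 FPKM in NC libraries 1, 2 and 3 and 8.89, 9.61 and 9.07 FPKM in the siRNA-labelled libraries. The make-up of this sum differed as well. ASIC3 held 61.9% ± 9.32 of it in NC and 62.0% ± 1.41 in the siRNA-labelled libraries (SD, n = 3 each). ASIC4 held 1.68% ± 1.69 in NC and 27.2% ± 2.45 in the others, whereas ASIC1 held 36.4% ± 10.9 and 10.8% ± 3.14. The ASIC4 share follows from the counts that chose the family. ASIC1 itself was at 1.03 FPKM in NC and 0.99 FPKM in the others, so its lower share goes with the larger sum. In NC libraries the order was thus ASIC3, ASIC1, ASIC4 and ASIC2. The ranges of ASIC3 and ASIC1 overlapped over the NC libraries, although ASIC3 was the higher within each, by least in library 3 at 0.6 against 0.57 FPKM. ASIC4 and ASIC2 were both at 0 in NC library 3. In the siRNA-labelled libraries the order was ASIC3, ASIC4, ASIC1 and ASIC2, and no neighbours in it overlapped in level.

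**Figure D2:**
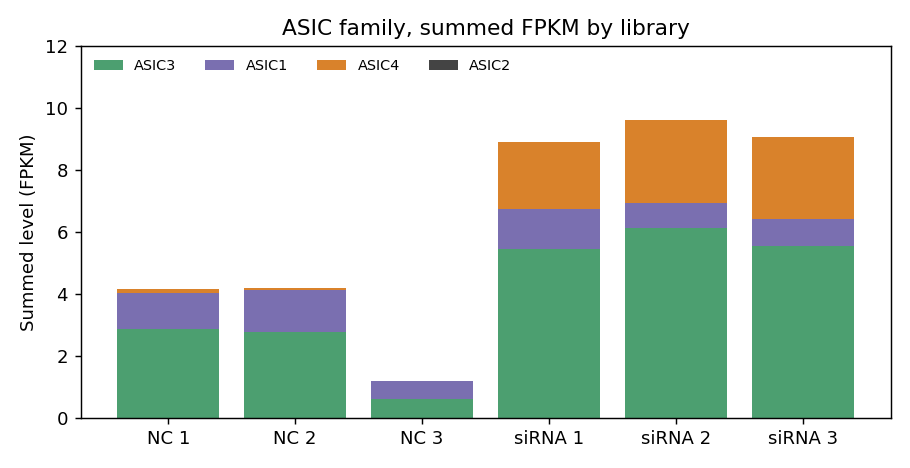
The plot of summed levels stacks the FPKM of ASIC3, ASIC1, ASIC4 and ASIC2 for each library. The 3 siRNA-labelled libraries sum to 8.89 to 9.61 FPKM with a visible ASIC4 part, NC library 3 sums to 1.17 FPKM, and ASIC2 is too low to see.

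ASIC4-AS1 (ENSG00000227432), a noncoding RNA gene on the minus strand from 219482073 to 219516877, overlaps the start of ASIC4 on the opposite strand. It had 2, 4 and 1 counts in NC libraries 1, 2 and 3 and 8, 23 and 22 counts in the siRNA-labelled libraries. Its groups did not overlap, although the highest NC count was 4. The ratio of the summed counts, 53 against 7, was 6.72 (exact 95% confidence interval from 3.05 to 17.5, counting error only), and the log2 fold change was 2.68 (SE 0.65). Without NC library 3 it was 2.29, and ASIC4-AS1 was called in that fit. With all 6 libraries it was not called by edgeR after the expression filter. It was called by edgeR without that filter and by DESeq2. Like ASIC4, this gene passed the filter only through the siRNA-labelled libraries.

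The annotation shows how the 2 genes interlock. Their spans share 2708 bases, but their exons share 0 bases in GENCODE 29. Exon 1 of ASIC4-AS1 has 182 bases and lies in intron 1 of ASIC4, and exon 2 has 337 bases and lies within SPEG, outside its exons. Whether counting used strand is not given in the sources used here. Without strand, a read from unspliced ASIC4 RNA at exon 1 and a read from ASIC4-AS1 cannot be told apart. The same holds at exon 2 for unspliced RNA of SPEG, which is on the plus strand. The counts of ASIC4-AS1 are therefore uncertain. The bases of exon 1 of ASIC4-AS1 (chr2:219516696-219516877, minus strand, from the GENCODE 29 transcripts) are shown here because this exon lies inside ASIC4. No part is set in capitals.
ASIC4-AS1 exon 1: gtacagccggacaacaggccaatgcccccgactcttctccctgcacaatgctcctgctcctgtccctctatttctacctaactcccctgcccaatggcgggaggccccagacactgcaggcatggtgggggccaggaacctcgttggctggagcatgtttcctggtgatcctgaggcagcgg

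Of the reads counted on either gene, ASIC4-AS1 held 2 of 10 (20%), 4 of 8 (50%) and 1 of 1 (100%) in NC libraries 1, 2 and 3. The exact (Clopper-Pearson) 95% confidence interval ran from 2.52 to 55.6% in NC library 1, from 15.7 to 84.3% in library 2 and from 2.5 to 100% in library 3. In the siRNA-labelled libraries it held 5.37% (2.35 to 10.3%), 11.4% (7.39 to 16.7%) and 10.7% (6.85 to 15.8%). The mean share was 56.7% ± 40.4 in NC and 9.18% ± 3.32 in the others (SD, n = 3 each). The NC shares rest on at most 10 reads each. Since most reads of the siRNA-labelled libraries here are those of ASIC4, the difference in share follows from the counts that chose the family and is given without a test.

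The RefSeq start of ASIC4-AS1 is further inside ASIC4 than the GENCODE start. The window from 250 bases before to 50 bases after it (chr2:219517037-219517336, minus strand, GRCh38.p14) takes in a 133-base exon of ASIC4, from 219517136 to 219517268, which opens an ASIC4 transcript that GENCODE 29 classes as a retained intron. The window is shown because both genes start transcripts near it, with the bases of that ASIC4 exon in capitals.
ASIC4-AS1 start window: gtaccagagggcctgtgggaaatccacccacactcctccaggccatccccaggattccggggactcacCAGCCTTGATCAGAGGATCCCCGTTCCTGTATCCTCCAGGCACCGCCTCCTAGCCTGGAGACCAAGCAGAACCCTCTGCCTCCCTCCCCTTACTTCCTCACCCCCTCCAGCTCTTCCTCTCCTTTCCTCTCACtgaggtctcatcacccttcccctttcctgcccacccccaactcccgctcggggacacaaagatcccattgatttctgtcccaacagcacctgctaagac

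ASIC3 has no gene overlapping it in the table. The 250 bases before its start (chr7:151048042-151048291, plus strand, GRCh38.p14, from RefSeq) are shown because they lie in the gap between ASIC3 and ABCB8, the gene before it, and carry none of the motifs searched, so no base is in capitals.
ASIC3 upstream: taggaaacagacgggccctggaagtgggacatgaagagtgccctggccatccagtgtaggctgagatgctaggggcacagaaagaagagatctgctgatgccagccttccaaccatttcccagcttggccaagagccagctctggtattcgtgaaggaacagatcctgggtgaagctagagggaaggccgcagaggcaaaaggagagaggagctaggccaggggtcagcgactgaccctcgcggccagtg

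The motifs searched on both strands in the 300-base RefSeq windows of ASIC1 (3 starts), ASIC2 (1), ASIC3 (2) and ASIC4-AS1 (1) were the TATA box (TATAAA), the CCAAT box (CCAAT) and the GC box (GGGCGG). They do not overlap each other in sequence. Of all 35116 windows, 11.5% held the first, 34.6% the second and 45.0% the third. The TATA box letters were in 0 of the 7 windows. The CCAAT letters were in the later window of ASIC3, and the GC box letters were in 2 windows of ASIC1 and in the window of ASIC2. The ASIC2 window and the first window of ASIC1 had 29 and 22 CpG dinucleotides, whereas the ASIC3 windows had 6 and 12 and the ASIC4-AS1 window had 5, against a median of 14 over all windows.

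Around ASIC4, 56 genes of the table lie within 500 kb of its span, of which 25 were tested. The other genes nearby did not come near the ASIC4 fold. With all 6 libraries 0 of the 25 were called by edgeR after the expression filter (1.41% over all genes). An unadjusted p was under 0.05 for 8 higher and 3 lower genes (25.1% over all genes), and DESeq2 called 3 (3.14% over all genes). Their median log2 fold change was 0.32, against -0.02 for all genes tested, and without NC library 3 it was 0.06 against 0.0071. In that fit 3 of the 25 were called, where the share over all genes was 3.09%. These were ASIC4-AS1, SLC23A3, a member of a solute carrier family, and ENSG00000280537, a gene without a symbol whose span holds SLC23A3 on the same strand, so that their counts may be split between them. SLC23A3 lies before ASIC4, from 219161465 to 219170095 on the minus strand. It had a log2 fold change of 1.44 (SE 0.34, edgeR adjusted p = 0.0676), or 1.10 without NC library 3. ENSG00000280537 had a log2 fold change of 1.77 (SE 0.45), or 1.35 without that library. Its mean level was 0.467 FPKM in NC and 1.63 FPKM in the siRNA-labelled libraries. Like ASIC4-AS1, it thus passed the expression filter only through the siRNA-labelled libraries, and nothing is read from the calls of these genes.

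**Figure D3:**
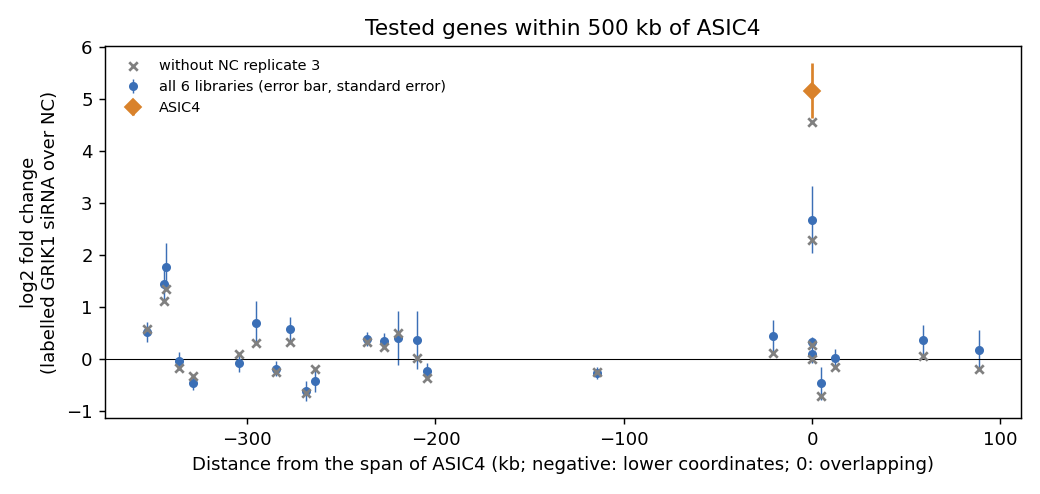
The plot of the ASIC4 neighbourhood shows the log2 fold change of each tested gene within 500 kb against its distance from ASIC4 in kb, with standard errors, and with crosses for the fit without NC library 3. ASIC4 at 5.16 stands above ASIC4-AS1 at 2.68, and the remaining genes lie between -0.62 and 1.77.

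The nearest tested genes showed small differences. GMPPA, the regulatory partner of the enzyme that makes GDP-mannose, ends 271 bases before ASIC4 on the same strand in the deposited table. It had 905, 890 and 903 counts in NC and 1225, 1274 and 1305 in the siRNA-labelled libraries, and its groups did not overlap. Its log2 fold change was 0.32 (SE 0.11, edgeR adjusted p = 0.131), or 0.28 without NC library 3 (edgeR adjusted p = 0.000893). In GENCODE 29 and RefSeq, GMPPA ends at 219506989, and RefSeq starts ASIC4 at 219507093. The table thus gives to the span of GMPPA a stretch that RefSeq gives to ASIC4, and reads there would not be in the ASIC4 count. They may be in the GMPPA count instead, whose exons cover 6874 bases in the table against 5332 in GENCODE 29. Whether the GMPPA difference holds reads of ASIC4 was not tested. CHPF, which builds chondroitin chains, lies 181 bases after ASIC4 on the opposite strand. Its log2 fold change was 0.09 (SE 0.18, edgeR adjusted p = 0.773), or -0.01 without NC library 3.

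The other expressed members were set beside their nearest tested genes in the same way, a choice made after their values were seen. ABCB8, a mitochondrial transporter, ends 509 bases before ASIC3 on the same strand. Its log2 fold change was 0.60 (SE 0.23, edgeR adjusted p = 0.163), or 0.37 without NC library 3 (edgeR adjusted p = 0.000581). CDK5, a kinase known from neurons, lies 1058 bases after ASIC3 on the opposite strand. Its log2 fold change was -0.92 (SE 0.14, edgeR adjusted p = 0.0303), which was short of the fold threshold for a call. RACGAP1, which acts in cell division, and SMARCD1, a chromatin remodeling subunit, flank ASIC1 and had log2 fold changes of -0.17 and 0.24, with adjusted p-values from edgeR of 0.57 and 0.489. Without NC library 3 the log2 fold changes were 0.04 and 0.03, so that the sign of RACGAP1 turned.

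The wider acid-sensing system was described by 5 lists of genes that are not members of the family. Of their tested genes, 0 were called by edgeR with all 6 libraries, with DESeq2 or in any other fit, including that without NC library 3 (1.41% of all genes were called with all 6 libraries). Counts at an unadjusted p under 0.05 are given for each list, and 25.1% of all genes tested reached it. In the fit without NC library 3, 35.2% of all genes tested had an adjusted p under 0.05.

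Among the DEG/ENaC relatives, 2 of 5 were tested, and 0 had an unadjusted p under 0.05. ASIC5, a bile acid-sensitive relative of the ASICs, had 22, 19 and 15 counts in NC and 11, 5 and 22 in the siRNA-labelled libraries, and its groups overlapped. Its log2 fold change was -0.74 (SE 0.50, edgeR adjusted p = 0.38). TDO2 overlaps ASIC5 on the opposite strand without sharing an exonic base. SCNN1D, the delta subunit of the epithelial sodium channel, had a log2 fold change of 0.01 (SE 0.49), or -0.40 without NC library 3. The alpha, beta and gamma subunits SCNN1A, SCNN1B and SCNN1G had at most 5 counts in any library.

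Of 17 binding partners and modulators of ASICs, 12 were tested. Their log2 fold changes had a median of 0.03, and 1 gene had an unadjusted p under 0.05. In the fit without NC library 3, the adjusted p was under 0.05 for 3 of 12. The most abundant were S100A10, at 292 ± 28.8 FPKM in NC and 321 ± 2.81 FPKM in the siRNA-labelled libraries, and ANXA2, at 149 ± 54.5 and 176 ± 1.52 FPKM (SD, n = 3 each). S100A10 is the adaptor that brings ASIC1 to the membrane, and ANXA2 is its usual partner. Their log2 fold changes were 0.05 (SE 0.11) and 0.13 (SE 0.29), and that of ANXA2 was 0.56 (SE 0.05) without NC library 3. The gene with the unadjusted p under 0.05 was LIN7B, a scaffold protein, with a log2 fold change of 0.84 (SE 0.31, edgeR adjusted p = 0.152), or 0.61 without NC library 3. PICK1, which binds ASIC1 and ASIC2 through its PDZ domain, had -0.16 (SE 0.20). Without NC library 3 it had -0.35 (SE 0.11, edgeR adjusted p = 0.0148). The peptides NPVF and PDYN and the stomatin relative STOML3 had 0 counts in each library.

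Other proton-sensing channels and receptors were mostly below the filter, and 3 of 16 were tested, with an unadjusted p under 0.05 for 1 higher and 1 lower gene. Leaving out NC library 3, the adjusted p was under 0.05 for 3 of 3, and 0 were past the fold threshold. TRPV1, the capsaicin and heat channel, had a log2 fold change of 0.99 (SE 0.37, edgeR adjusted p = 0.158), or 0.62 without NC library 3. Its level was 1.81 ± 0.981 FPKM in NC, with 0.7 in NC library 3, and 3.70 ± 0.14 in the others. PACC1, the proton-activated chloride channel, had a log2 fold change of -0.46 (SE 0.19, edgeR adjusted p = 0.181).

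Acid extrusion and pH regulation was the list with the most expressed genes, 26 of 29. Their median log2 fold change was -0.05, and 12 of 26 were above 0. An unadjusted p was under 0.05 for 5 higher and 5 lower genes. CA9, a carbonic anhydrase of hypoxic tumors, had 0.75 (SE 0.25, edgeR adjusted p = 0.133), or 0.49 without NC library 3. LDHB, a lactate dehydrogenase subunit, had -0.91 (SE 0.37), or -0.30 without that library. The most abundant genes were LDHA, at 298 ± 52.5 and 293 ± 10.1 FPKM, and BSG, the chaperone of lactate transporters, at 162 ± 59.3 and 207 ± 23.4 FPKM. Their log2 fold changes were -0.13 and 0.29, or 0.10 and 0.05 without NC library 3, so that the sign of LDHA turned. Without NC library 3 their median was -0.09, an adjusted p under 0.05 was reached by 16 of 26, and the fold threshold by 0.

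Since ASIC genes are mainly neuronal, 27 neuronal genes were examined, of which 10 were tested. The median log2 fold change was -0.04, with 5 of 10 above 0 and an unadjusted p under 0.05 for 1 higher and 2 lower genes. The median was -0.12 without NC library 3, and the adjusted p was then under 0.05 for 4 of 10. NEFM, among these 4, passed the expression filter only through NC (0.697 FPKM in NC against 0.44 in the others). The 1 higher gene was SYT1, the calcium sensor of synaptic vesicles, with 0.92 (SE 0.36), or 0.61 without NC library 3. Its mean level was 0.4 FPKM in NC and 0.79 FPKM in the others. SYT1 thus passed the filter only through the siRNA-labelled libraries, and nothing is read from its p. SNAP25, a vesicle fusion protein, had -0.44 (SE 0.12, edgeR adjusted p = 0.0935), or -0.51 without NC library 3. UCHL1, an abundant deubiquitinase of neurons, was at 451 ± 46.0 FPKM in NC and 357 ± 7.91 FPKM in the others, with a log2 fold change of -0.44, or -0.28 without NC library 3. RCOR1, a corepressor that works with REST, had a log2 fold change of -0.19 (SE 0.13, edgeR adjusted p = 0.377). Without NC library 3 it had -0.28 (SE 0.08, edgeR adjusted p = 0.0114). REST, the repressor of neuronal genes, was at 5.24 ± 0.49 and 5.28 ± 0.434 FPKM.

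**Figure D4:**
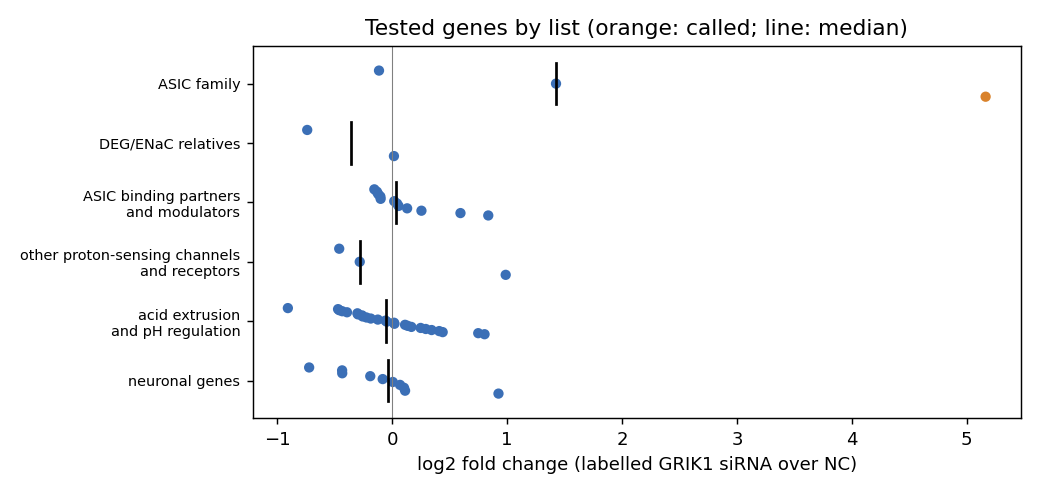
The plot of lists shows the log2 fold change of each tested gene by list, with the median as a line and the called gene in orange. ASIC4 at 5.16 is the only called gene shown, ASIC3 is at 1.43, and the genes of the other 5 lists lie between -0.91 and 0.99.

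Many genes followed the pattern of ASIC4 over the 6 libraries. On the log2 CPM scale, the 5 with the highest Pearson correlation were ARHGAP26 (0.999), NFX1 (0.999), ZNF526 (0.999), ADAM19 (0.998) and NOMO2 (0.998), and 642 genes were at or above 0.95. Each of the 5 was highest in the siRNA-labelled libraries and lowest in NC library 3. Their fold changes were far smaller than that of ASIC4, from 0.50 for ZNF526 to 1.12 for ADAM19 on the log2 scale. The 5 genes were picked for following ASIC4, so a difference between the groups follows from that choice, and nothing is read from it. ADAM19, a membrane metalloproteinase, was called in the fit over all genes, which is no test of it. Without NC library 3 its log2 fold change was 0.96, under the fold threshold. NOMO2 has close paralogs, which leaves its counts uncertain. For GMPPA the correlation was 0.997, for ASIC3 0.917, for ASIC4-AS1 0.914 and for ASIC1 0.084. These 6 points share their scaling and depth, so the correlations are a description.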

How the data were processed

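RNA-seq libraries of U87-MG cells (3 NC, 3 labelled GRIK1 siRNA) were assigned to groups by title. The authors deposited whole-number read counts per gene without normalization, and FPKM values computed from them (the formula gave 100% of the FPKM values within rounding). The submitters' processing notes name cutadapt 1.9.1, HISAT2, HTSeq and GRCh38. The strand setting and annotation release are not given in the sources used here. Of the value columns, 0 were unassigned.

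The 15870 genes whose average FPKM reached 0.5 were tested on their counts in edgeR 4.0.16 (R 4.3.3, quasi-likelihood, TMM scaling), with Benjamini-Hochberg adjustment over all of them. The standard error is the absolute log2 fold change divided by the square root of F. Normalized CPM use TMM library sizes. DESeq2 1.42.0, limma-trend (limma 3.58.1) on log2(FPKM + 1) and log2(FPKM + 0.1), which understates low genes, other scalings and filters, a replicate block and leaving out each library were tried. The fits were tested on simulated data, with a common dispersion, no outlying library and changes planted only in genes of higher level. That test therefore does not cover genes as low as ASIC4 and ASIC4-AS1 in NC. Exact intervals used scipy 1.17.1, and the remaining steps Python 3.11.15, numpy 2.4.6 and pandas 2.3.3. Gene models came from GENCODE 29, in which ASIC1, ASIC2, ASIC3, ASIC4 and ASIC4-AS1 have the same start and end as in the table.

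The members and lists were chosen with earlier results of these data known. Named were the members, genes overlapping them, called genes and nearest tested genes within 500 kb of ASIC4, called genes and the 2 most abundant of each list, and the 5 genes most like ASIC4. Further genes of the lists were named after their values were seen. Some genes of the lists are not reported here. With 11099909 to 14006968 counts per library, a count of 0 allows up to 3 counts (95% limit), and intervals cover counting error only.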

Additional observations from a re-analysis of the deposited data

How the results depend on the processing

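The log2 fold change of ASIC4 kept its direction in 15 of 15 alternatives and was called in 9. The family was chosen by this rise, with 12 counts in NC against 502, so its direction could not turn in these fits. The log2 fold change was 1.71 in limma-trend on log2(FPKM + 1) and 4.02 with a pseudocount of 0.1, scales that understate a gene so low in NC. It was 4.55 to 6.15 with each library left out in turn. ASIC3 was above 0 in 15 of 15 (1.00 to 1.72 with a library left out) and called in 2. ASIC1 was above 0 in 2 of 15 (-0.37 to 0.11 with a library left out) and called in 0. ASIC4-AS1 was above 0 in each of the 14 fits that tested it (2.29 to 3.31 with a library left out), was called in 3, and had 1.34 in limma-trend on log2(FPKM + 1). Filtering with filterByExpr left it untested. ASIC2 was below the filter. The fit without the filter gave it a log2 fold change of 1.80 (SE 2.07), which rests on 1 count. The share of ASIC4-AS1 differed between groups by -65.8 to -25.8 percentage points with a library left out.

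The number of genes called, 224 of 15870, was 664 without the filter, 499 with DESeq2, 113 and 125 in limma-trend with a pseudocount of 1 and 0.1, and 0 to 491 with a library left out. It was 491 only without NC library 3, and 0 without any other library. Within 500 kb of ASIC4, 3 genes were called without the filter and 3 with DESeq2, and 0 to 3 with a library left out. The 5 lists had 0 calls under each alternative.

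With the replicate number as a block, 0 genes were called, and ASIC4 had a log2 fold change of 5.18. The deviations of same-numbered libraries from their group means had correlations of -0.07, 0.04 and -0.04 over genes. Those of libraries with different numbers ran from -0.06 to 0.08. With 3 libraries per group, these values cannot decide whether same-numbered libraries were paired. The cause of these changes was not tested. Depth limits ASIC2 in both groups and ASIC4 and ASIC4-AS1 in NC.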
